A study of Mus musculus with 9 samples.

Results

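Transcript levels of brown fat and of the soleus were compared by RNA-seq in male C57BL/6J mice of wild-type genotype, 3 months old. Each tissue had 3 libraries, so 6 of the 9 libraries of the series entered the comparison, and the 3 white fat libraries served only to set the spread of the fit and as a level to look against. All groups share strain, sex, age and genotype, no treatment is given in the labels, and 3 mice are stated without saying which libraries share one. Levels are FPKM, the number of sequenced fragments scaled to transcript length and to all mapped fragments of the library. A gene was kept when it had at least 1 FPKM in at least 3 of the 6 libraries. Of 17753 genes with a value, 9227 passed, and 9184 of these were counted once 43 genes listed at exactly 0 in a whole tissue were set apart.

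Both tissues are packed with mitochondria, but they use them differently. In brown fat the uncoupling protein UCP1 lets protons back into the mitochondrial matrix without making ATP, so that oxidation yields heat, and the fuel is fat from lipid droplets and from blood. The soleus, a leg muscle that holds posture, is rich in slow oxidative fibres, and its mitochondria make ATP for the myosin motor and the calcium pump. Respiratory chain subunits, matrix enzymes and carriers of the inner membrane are encoded mostly in the nucleus and imported. The chain subunits encoded in mitochondrial DNA were not analysed here.

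The tissue markers matched the labels. Ucp1 was at 3386, 4108 and 3562 FPKM in brown fat and 4.14, 1.41 and 0.617 FPKM in soleus, in each case for replicates 1, 2 and 3. Pck1, the enzyme that makes phosphoenolpyruvate and in fat feeds glycerol synthesis, was at 2011, 1825 and 1752 FPKM in brown fat and 15.4, 5.61 and 2.14 FPKM in soleus. The slow and cardiac myosin light chain Myl2 was at 0.19, 1.84 and 0.832 FPKM in brown fat and 8755, 11002 and 9634 FPKM in soleus. The muscle form of a cytochrome oxidase subunit, Cox6a2, was at 0.75, 5.76 and 2.22 FPKM in brown fat and 2728, 3363 and 2771 FPKM in soleus. For all 4 markers the lowest library of the high tissue lay above the highest library of the other. The soleus libraries also held fast fibre genes in quantity: the fast troponin C gene Tnnc2 was at 9196, 11322 and 10106 FPKM, close to Myl2. In bulk tissue, fewer cells of a type and less RNA per cell cannot be told apart.

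Most genes differed between the tissues. On log2(FPKM + 1), limma called 5081 of the 9184 genes higher in brown fat (55.3%) and 2417 lower (26.3%) at a Benjamini-Hochberg adjusted p under 0.05. By at least 1 log2 unit, 2122 genes (23.1%) were higher and 1091 (11.9%) lower. The 95% interval of the difference lay within 1 log2 unit either way for 5077 genes (55.3%). These shares are the background for every count below, since a list near them differs no more often than genes at large. A gene under 1 FPKM in every library of 1 tissue passed the filter through the other tissue alone, which fixed its direction, and lists with 3 or more such members are given with their number. Differences are given throughout as log2 brown fat minus soleus on this scale, with ± the standard error, and understate the change of genes with low values. Of 255 genes named with a test, 129 were higher, 89 lower and 37 not called. The called ones had an adjusted p of 0.019 or less by limma and no overlap between the groups, and those not called are given with a 95% interval or a p. Genes were grouped in 50 lists with 961 different genes, of which 879 passed the filter and 866 were counted. The p-values, standard errors and intervals rest on the spread among libraries of the same tissue, white fat included. That spread may be technical in part.

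The median difference over all genes was 0.34, and a few very abundant transcripts took more of a soleus library. The 20 highest genes held 27.8% to 29.3% of the FPKM in soleus against 18.7% to 19.0% in brown fat. With median of ratios scaling the median of all genes moved to -0.03, with 3534 genes higher and 3818 lower, so 48.1% of called genes were higher instead of 67.8%. Upper quartile and quantile scaling both put it at 0.07. Differences between 0 and about this shift therefore have a direction that depends on the scaling, and lists and genes for which it turned are named as such. Of the 37 named genes not called, 29 were called lower with that scaling. Summed FPKM ran from 308950.0 to 352502 per library and the relative depth, read from the spacing of low values, from 1 to 1.92. Correlations across genes, a description with genes not independent, were 0.989 to 0.995 within brown fat, 0.990 to 0.994 within soleus and 0.606 to 0.653 between the tissues.

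**Figure D1:**
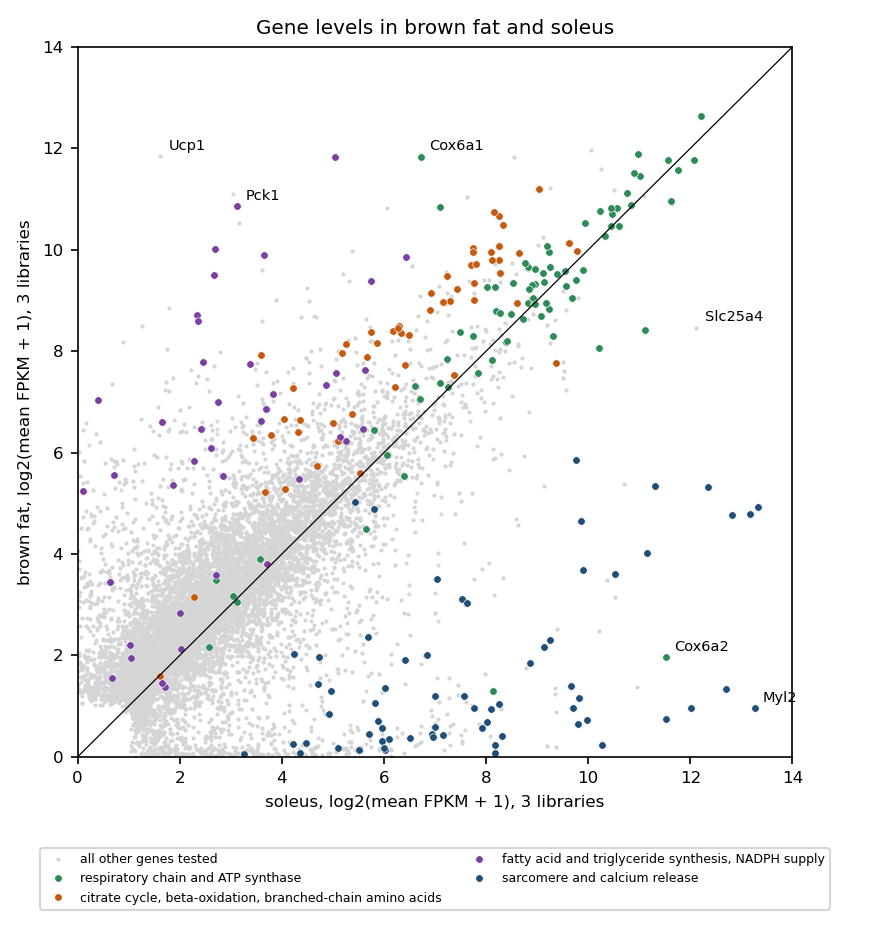
Mean level of each gene in soleus (x axis) and brown fat (y axis), both as log2(mean FPKM + 1) over 3 libraries, with the line of equal level. Respiratory chain and ATP synthase genes (green) lie mostly near the line at high levels, matrix oxidation genes (orange) and lipid synthesis genes (purple) mostly above it, and sarcomere and calcium release genes (blue) below it.

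Complexes I and IV of the respiratory chain had medians near that of all genes or below it in FPKM as deposited, and medians below 0 with median of ratios scaling, while complexes II and III had a median above 0 with both. Complex I, which takes electrons from NADH, had 35 nuclear subunits counted: 14 were higher in brown fat, 6 lower and 15 not called. Their median difference was 0.14. With median of ratios scaling it turned to -0.32, with 5 higher and 18 lower. In FPKM as deposited 27 had an interval within 1 log2 unit. They summed to 6.05%, 6.16% and 6.3% of all FPKM in the brown fat libraries, 5.66%, 6.01% and 5.33% in soleus and 2.02%, 1.76% and 1.89% in white fat. The brown fat values lay above those of soleus by less than they lay above white fat.

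The highest transcript of the list, Ndufa4, whose product is now also counted with complex IV, was at 3347, 3577 and 3580.0 FPKM in brown fat and 2878, 3476 and 2723 FPKM in soleus. The groups overlapped, and the difference was 0.22 (95% interval -0.08 to 0.51). Ndufc1 and Ndufa12 were closest to equal, at -0.01 (95% interval -0.28 to 0.26) and 0.03 (95% interval -0.32 to 0.37). The members that stood out were few. Ndufa10, an accessory subunit, was at 659.6, 579 and 603 FPKM in brown fat and 240.3, 265 and 269 FPKM in soleus, a difference of 1.25 ± 0.09 with no overlap. Ndufv1, which carries the NADH binding site, and Ndufs1, the largest subunit of that arm, followed at 1.10 ± 0.10 and 0.88 ± 0.09. In the other direction Ndufb2 was at 329, 284 and 327 FPKM in brown fat and 614, 706 and 586 FPKM in soleus, every soleus library above every brown fat library, a difference of -1.02 ± 0.12. Ndufa11, an accessory subunit, was lower too, -0.85 ± 0.13. The 6 lower genes became 3 without brown fat replicate 1 or replicate 3 and 2 without soleus replicate 2.

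Complexes II and III pass electrons from succinate and from ubiquinol. Of 14 subunits, 11 were higher, 0 lower and 3 not called, with a median of 0.58 against 0.34 over all genes and 0.13 with median of ratios scaling, which left 6 higher and 1 lower. Sdha, the flavoprotein of succinate dehydrogenase and an enzyme of the citrate cycle as well, led at 1094, 1094 and 1067 FPKM in brown fat and 281, 298 and 329.9 FPKM in soleus. All 3 brown fat values lay above all soleus values, a difference of 1.84 ± 0.09. Its membrane partner Sdhd differed by 1.27 ± 0.10 and the complex III core gene Uqcrc2 by 0.97 ± 0.09. Not all members were called. Uqcrq, the most abundant, was at 1864, 1904 and 1866 FPKM in brown fat and 1718, 2084 and 1678 FPKM in soleus with overlapping groups and a difference of 0.05 (95% interval -0.26 to 0.35), and Uqcr10 differed by 0.24 (95% interval -0.07 to 0.55).

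Cytochrome oxidase, complex IV, has subunits with a muscle form and a form found in most tissues. Among 15 subunits 8 were higher, 2 lower and 5 not called, and the median of 0.35 turned to -0.10 with median of ratios scaling, where 2 were higher and 5 lower. The count of higher genes was 5 without brown fat replicate 2, soleus replicate 1 or soleus replicate 3. Cox6a1, the form of subunit VIa found in most tissues, was at 3788, 3696 and 3492 FPKM in brown fat and 113, 110.4 and 91.5 FPKM in soleus. That is a difference of 5.12 ± 0.12, opposite to Cox6a2, the heart and muscle form, at -9.77 ± 0.37. Cox8a was at 1946, 1826 and 1766 FPKM in brown fat and 143, 146 and 120.3 FPKM in soleus, a difference of 3.75 ± 0.13. The members closest to equal were Cox5a and Cox7b. Cox5a was at 1417, 1372 and 1453 FPKM in brown fat and 1336, 1528 and 1335 FPKM in soleus and differed by 0.02 (95% interval -0.22 to 0.25), and Cox7b by 0.04 (95% interval -0.23 to 0.31). Cox8b, the muscle and brown fat form, was the highest member at 6568, 6558 and 6035 FPKM in brown fat and 4243, 5623 and 4265 FPKM in soleus. Its ranges did not overlap, but limma did not call it, at 0.45 ± 0.34 (limma adjusted p = 0.24). White fat, which also enters that standard error, was at 53.2, 32.4 and 112 FPKM. Cox6b1 was higher at 0.62 ± 0.14, a call that median of ratios scaling ended (0.17), and the low Cox4i2 lower at -0.41 ± 0.09.

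ATP synthase, which turns the proton gradient into ATP, was the 1 complex with a median below 0 in FPKM as deposited. Of its 16 genes, 4 were higher in brown fat, 6 lower and 6 not called, with a median of -0.25 and, with median of ratios scaling, -0.70 and 11 lower. Its summed share was 4.7%, 4.71% and 4.86% in brown fat and 5.71%, 5.92% and 5.43% in soleus, with no overlap. The catalytic subunits went the other way. Atp5b was at 3841, 3825 and 3699 FPKM in brown fat and 1875, 2037 and 2109 FPKM in soleus, a difference of 0.92 ± 0.11, and Atp5a1 differed by 0.54 ± 0.11, which median of ratios scaling reduced to 0.08 and ended as a call. The 4 higher genes became 2 without brown fat replicate 3 or soleus replicate 1.

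The widest gaps to soleus were in the membrane part. Atp5g3, which encodes the ring subunit through which protons pass, was at 331, 351 and 347 FPKM in brown fat and 2076, 2391 and 2157 FPKM in soleus. Every soleus value was several times every brown fat value, and the difference was -2.68 ± 0.11. Its copy Atp5g1 was at 1.45, 1.64 and 1.29 FPKM in brown fat and 254, 330.2 and 262 FPKM in soleus, a difference of -6.84 ± 0.15. Both encode the same mature protein, and Atp5g1 has near-identical copies elsewhere in the genome, so its level is uncertain. The stalk subunit Atp5j was lower as well, -2.14 ± 0.11. Atp5k, the highest member, was at 3672, 3367 and 3496 FPKM in brown fat and 4118, 4918 and 3900.2 FPKM in soleus and was not called, at -0.29 ± 0.15 (limma adjusted p = 0.091). Atp5h and Atp5pb differed by -0.20 (95% interval -0.47 to 0.08) and -0.21 (95% interval -0.47 to 0.04).

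A ratio within a library does not depend on how libraries are scaled. Per 100 FPKM of complexes I to IV, ATP synthase stood at 26.2, 26.2 and 26.4 FPKM in the brown fat libraries and 38.9, 37.9 and 39.2 in soleus. The adenine nucleotide carriers Slc25a4 and Slc25a5, which trade matrix ATP for ADP, stood at 3.95, 4.26 and 4.09 FPKM per 100 FPKM of ATP synthase in brown fat and 23.4, 23.0 and 25.4 in soleus. Ucp1 stood at 540.4, 596.3 and 546.3 FPKM per 100 FPKM of these carriers in brown fat and at 0.1, 0.0294 and 0.0137 in soleus. All 3 ratios separated the tissues without overlap. An exact permutation test of 3 against 3 libraries cannot go below p = 0.10, so none was read from them.

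**Figure D2:**
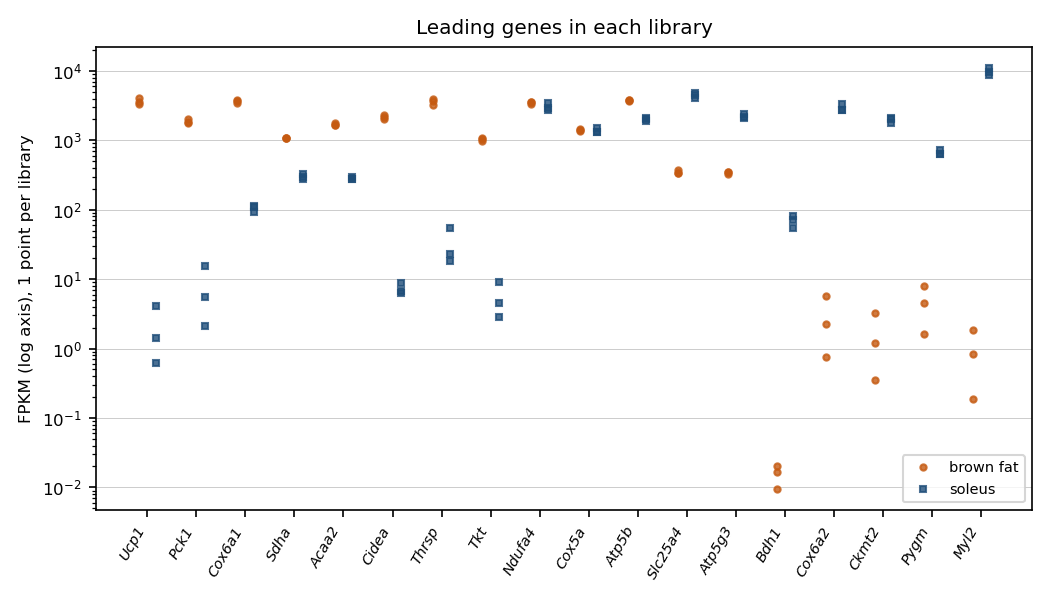
Levels of 18 genes in each of the 6 libraries, FPKM on a log axis, 1 point per library, brown fat as circles and soleus as squares. Ndufa4 and Cox5a overlap or nearly so, the genes to their left are high in brown fat, and Slc25a4, Atp5g3 and the genes from Bdh1 to Myl2 are high in soleus.

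The genes that build and maintain mitochondria had shares of higher members close to or above the 55.3% of all genes, and medians that median of ratios scaling moved towards or past 0. The mitochondrial ribosome, which makes the chain subunits of mitochondrial DNA, had 71 genes counted, 36 higher, 8 lower and 27 not called. With median of ratios scaling 20 were higher and 34 lower, and the median of 0.25 turned to -0.20. In FPKM as deposited 56 members had an interval within 1 log2 unit. Per 100 FPKM of the chain and ATP synthase, the ribosome genes stood at 5.99, 6.14 and 5.82 FPKM in brown fat and 6.26, 6.42 and 6.51 in soleus, where every library lay above those of brown fat. Mrpl45 was at 23.3, 26.7 and 24.5 FPKM in brown fat and 22.8, 25.5 and 25.4 FPKM in soleus, with overlapping groups and a difference of 0.01 (95% interval -0.16 to 0.18). Single members did differ: Mrps2 by 2.04 ± 0.09 and Mrpl39 by 1.80 ± 0.09 upward, Mrpl14 by -1.56 ± 0.13 and Mrpl33 by -1.34 ± 0.17 downward. Mrps21, the highest, was not called, at -0.15 (95% interval -0.41 to 0.11).

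Assembly factors of the chain were higher in brown fat in 19 of 25 cases and lower in 1, with a median of 0.67. Median of ratios scaling gave 12 higher and 7 lower, median 0.23. The assembly pair of the ATP synthase F1 head split. Atpaf2 was at 90.4, 97.5 and 90.7 FPKM in brown fat and 10.2, 11.7 and 10.4 FPKM in soleus, a difference of 3.00 ± 0.08. Atpaf1 was at 2.94, 3.24 and 3.07 FPKM in brown fat and 5.99, 5.99 and 6.23 FPKM in soleus, a difference of -0.79 ± 0.07. Foxred1, which helps to build complex I, differed by 2.74 ± 0.07, and the copper carrier Cox17, the highest of the list, by 1.35 ± 0.11. Protein import gave 16 higher, 4 lower and 7 not called of 27, with a median of 0.52. Median of ratios scaling made this 11 higher and 9 lower, median 0.07. The matrix chaperones led. Hspd1 (Hsp60) was at 205, 171 and 154 FPKM in brown fat and 32.9, 35.1 and 38.7 FPKM in soleus, a difference of 2.27 ± 0.11, and Hspa9, the motor of the import channel, at 1.65 ± 0.09. The outer receptor Tomm20 was lower, at 21.4, 16.7 and 18 FPKM in brown fat and 39.3, 43.1 and 36 FPKM in soleus, a difference of -1.04 ± 0.11, and the channel gene Timm23 at -0.78 ± 0.11.

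Genes for upkeep and transcription of mitochondrial DNA were higher in 11 of 13 cases and lower in 1, median 0.59, and 0 were lower without brown fat replicate 1 or soleus replicate 2. Median of ratios scaling left 6 higher and 2 lower, median 0.16. Lrpprc, which stabilises mitochondrial messengers, was at 48.8, 50.9 and 46.3 FPKM in brown fat and 28.8, 30.1 and 33.5 FPKM in soleus, a difference of 0.65 ± 0.08, and Top1mt, the mitochondrial topoisomerase, differed by 1.02 ± 0.07. For coenzyme Q and cardiolipin synthesis 10 of 17 were higher and 2 lower, and the median of 0.34 turned to -0.09 with median of ratios scaling, with 6 higher and 7 lower. The widest gap was that of Crls1, cardiolipin synthase, the enzyme of the signature lipid of the inner membrane. It was at 153, 180.4 and 147 FPKM in brown fat and 9.89, 10.9 and 10.3 FPKM in soleus, far apart, a difference of 3.82 ± 0.10. Coq6 followed at 2.41 ± 0.08, while Coq7 and Coq9 of the same pathway differed by -0.02 (95% interval -0.28 to 0.24) and 0.07 (95% interval -0.12 to 0.26). Coq10a, a coenzyme Q binding protein, was lower at -1.51 ± 0.08, and the list had 1 lower gene without soleus replicate 2.

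Genes of fusion, fission and turnover split, with 10 of 19 higher, 6 lower and a median of 0.17 that turned to -0.25 with median of ratios scaling, with 7 higher and 10 lower. Chchd6, a gene of crista junctions, was at 41.1, 40.3 and 39.8 FPKM in brown fat and 4.1, 3.71 and 3.71 FPKM in soleus, a difference of 3.10 ± 0.09, the fusion GTPase Opa1 at 1.46 ± 0.08 and Immt, the mitofilin of the same junctions, at 1.19 ± 0.09. In the other direction Mfn1, a mitofusin of the outer membrane, was at 16.4, 18.1 and 16 FPKM in brown fat and 46.2, 53.9 and 57.1 FPKM in soleus, a difference of -1.58 ± 0.09, Pink1, a kinase that marks damaged mitochondria, at -1.16 ± 0.12, and Fis1 at -1.08 ± 0.11. Chchd3 and Mff were not called, at 0.02 (95% interval -0.17 to 0.21) and -0.05 (95% interval -0.23 to 0.12).

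In contrast to the chain, the enzymes that feed it were higher in brown fat nearly throughout. The citrate cycle list had 17 of 19 genes higher, 1 lower and 1 not called, with a median of 1.69, and 1.23 with median of ratios scaling. Its summed share was 4.33%, 4.52% and 4.54% in brown fat and 1.86%, 1.83% and 1.96% in soleus. Pcx, pyruvate carboxylase, which refills the cycle with oxaloacetate, was at 237, 242 and 244 FPKM in brown fat and 13.5, 9.7 and 9.75 FPKM in soleus, the widest gap of the list at 4.35 ± 0.13. Sucla2, the ATP-forming succinyl-CoA ligase, and Dlst, the core of the oxoglutarate dehydrogenase, differed by 2.29 ± 0.10 and 2.21 ± 0.08.

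The single lower gene of the cycle was Idh2, the isocitrate dehydrogenase that uses NADP. It was at 183, 244 and 219 FPKM in brown fat and 591, 688 and 713 FPKM in soleus, every soleus library above every brown fat library, -1.62 ± 0.15. Mdh2 was the member closest to equal, at 995, 1000.0 and 1038 FPKM in brown fat and 815, 915 and 917 FPKM in soleus and 0.20 (95% interval -0.04 to 0.43). Per 100 FPKM of the chain and ATP synthase, the 15 cycle genes that are not chain subunits stood at 14.7, 15.4 and 15.0 FPKM in brown fat and 6.46, 5.91 and 7.38 in soleus. Beta-oxidation genes stood at 13.9, 13.9 and 13.3 FPKM against 3.61, 3.13 and 3.81. Both ratios were apart in every library.

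Mitochondrial beta-oxidation, the pathway that cuts acyl-CoA to acetyl-CoA, had 14 of 15 genes higher and 0 lower. The median was 2.17, or 1.72 with median of ratios scaling, and the share was 3.14%, 3.16% and 3.08% in brown fat and 0.736%, 0.675% and 0.734% in soleus. Called members lay within a narrow band, from Eci1, an enoyl-CoA isomerase, at 1.58 ± 0.11 to Acaa2, the thiolase of the last step, at 2.59 ± 0.10. Acaa2 was at 1666, 1788 and 1673 FPKM in brown fat and 276, 277 and 296 FPKM in soleus. The long-chain dehydrogenase Acadl was at 1684, 1613 and 1547 FPKM in brown fat and 289, 317 and 313 FPKM in soleus and the carnitine transferase Cpt2 at 328, 274 and 250.2 FPKM in brown fat and 57.3, 52.2 and 61.9 FPKM in soleus, with differences of 2.40 and 2.29. Hadha of the trifunctional protein differed by 1.81 ± 0.09. The member not called was Cpt1a, the liver form of the outer membrane transferase, at 2.24, 1.88 and 1.92 FPKM in brown fat and 2.48, 1.74 and 1.97 FPKM in soleus, a difference of -0.02 (95% interval -0.22 to 0.19). Cpt1b, the muscle form, was not analysed here.

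Breakdown of branched-chain amino acids followed the same course, with 19 of 21 genes higher, none lower and a median of 2.10. Pcca and Pccb, the subunits of propionyl-CoA carboxylase, were at 169.7, 149 and 144 FPKM in brown fat and 16.4, 17.1 and 19.2 FPKM in soleus and at 286, 292 and 267 FPKM in brown fat and 36.1, 38.4 and 36.7 FPKM in soleus. They differed by 3.06 ± 0.09 and 2.89 ± 0.08, with no overlap. Dbt and Bckdha of the branched-chain dehydrogenase differed by 2.85 ± 0.10 and 2.20 ± 0.11. Bckdk, the kinase that shuts this dehydrogenase off, was at 43.6, 50.4 and 47.8 FPKM in brown fat and 42.6, 47.3 and 46 FPKM in soleus, with overlapping groups and a difference of 0.06 (95% interval -0.17 to 0.28). White fat held the pathway at 0.617%, 0.614% and 0.625% of its FPKM, between brown fat at 0.969%, 0.929% and 0.9% and soleus at 0.272%, 0.264% and 0.273%.

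Pyruvate dehydrogenase, the gate from glycolysis to the cycle, had 9 of 11 genes higher and 1 lower, median 1.23. Dlat and Dld, its acetyltransferase core and its lipoamide dehydrogenase, differed by 1.81 ± 0.09 and 1.81 ± 0.09. Its phosphatases, which switch it on, were exchanged. Pdp2 was at 21.9, 20.4 and 16.5 FPKM in brown fat and 1.82, 1.5 and 2.06 FPKM in soleus, a difference of 2.88 ± 0.11. Pdp1, the form stimulated by calcium, was at 1.31, 1.76 and 2.25 FPKM in brown fat and 11.8, 11.2 and 13.5 FPKM in soleus, a difference of -2.26 ± 0.12. The kinase Pdk4, which switches it off, was the highest of the list at 862, 916 and 782 FPKM in brown fat and 387, 303 and 404 FPKM in soleus, a difference of 1.23 ± 0.21, while Pdk2 was not called, at -0.13 (95% interval -0.41 to 0.15).

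Ketone body genes were few and split 3 higher to 2 lower of 5. Bdh1, which oxidises hydroxybutyrate, was at 0.0164, 0.00955 and 0.0201 FPKM in brown fat and 55.1, 81.1 and 71.6 FPKM in soleus. The brown fat values were close to 0 in all 3 libraries, and the difference was -6.09 ± 0.12. Oxct1, the next enzyme of ketone use, was lower by less, -0.68 ± 0.11. The monocarboxylate carriers Slc16a1 and Slc16a7 were higher in brown fat at 2.04 ± 0.12 and 2.74 ± 0.08.

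**Figure D3:**
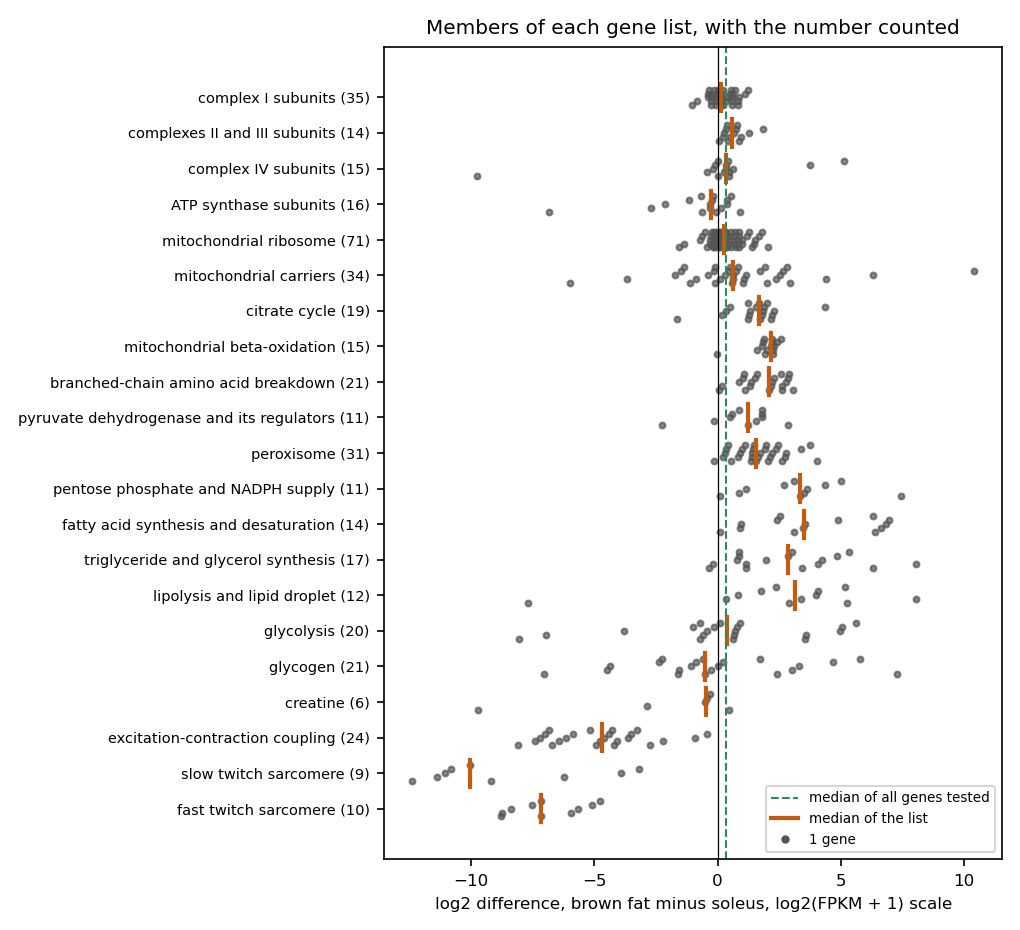
Log2 difference of every counted member of 21 gene lists, brown fat minus soleus, 1 point per gene, with the list median as an orange bar and the median of all genes, 0.34, as a dashed line. Chain, ATP synthase and ribosome lists have medians from -0.25 for ATP synthase to 0.58 for complexes II and III. Under median of ratios scaling the medians of complexes I and IV and of the ribosome turn negative. The citrate cycle at 1.69, beta-oxidation at 2.17 and fatty acid synthesis at 3.50 lie to the right. The slow twitch sarcomere lies at -10.03 to the left.

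Carriers of the inner membrane were uneven. Of 34, 22 were higher in brown fat, 8 lower and 4 not called, with a median of 0.63. Median of ratios scaling gave 17 higher and 12 lower, median 0.26. Their summed shares overlapped, 1.74%, 1.93% and 1.83% in brown fat and 1.77%, 1.78% and 1.81% in soleus, but different genes filled them. Ucp1 differed by 10.40 ± 0.77. In soleus the place of the leading carrier was held by Slc25a4, the muscle adenine nucleotide carrier, at 342, 373 and 342 FPKM in brown fat and 4097, 4764 and 4454 FPKM in soleus, a difference of -3.65 ± 0.11. Slc25a3, the phosphate carrier that ATP synthesis also needs, was lower in brown fat at 238, 219 and 205 FPKM in brown fat and 684, 789 and 708 FPKM in soleus, a difference of -1.72 ± 0.10.

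Shuttle carriers parted as sharply. Slc25a1 exports citrate, the acetyl source of fatty acid synthesis, and was at 399, 323 and 434 FPKM in brown fat and 6.49, 3.73 and 2.1 FPKM in soleus, a difference of 6.32 ± 0.27. Slc25a12, the aspartate and glutamate carrier of the malate shuttle, was at 0.807, 1.3 and 1.23 FPKM in brown fat and 119.9, 135 and 145 FPKM in soleus, a difference of -5.99 ± 0.10 in the opposite direction. Slc25a35, whose substrate is not well known, differed by 4.42 ± 0.12. Got2, the mitochondrial transaminase of the malate shuttle, was at 6.22, 5.55 and 4.35 FPKM in brown fat and 119, 134 and 146 FPKM in soleus, a difference of -4.40 ± 0.12, with the reservation that it has near-identical copies. Gpd2, the mitochondrial enzyme of the glycerol phosphate shuttle, went the other way at 202, 229 and 233 FPKM in brown fat and 4.64, 3.96 and 4.92 FPKM in soleus, a difference of 5.34 ± 0.09.

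The list of calcium uptake held 4 counted genes, the outer membrane pores and an exchanger. Vdac1, the main pore, was at 189, 198 and 192 FPKM in brown fat and 675, 749 and 779 FPKM in soleus, a difference of -1.92 ± 0.09, and Vdac3 was lower too, -1.67 ± 0.08. Vdac2 was at 119, 129 and 120.3 FPKM in brown fat and 119, 134 and 123 FPKM in soleus, overlapping and -0.03 (95% interval -0.21 to 0.15). Letm1, an exchanger of the inner membrane, was higher at 141, 128 and 125 FPKM in brown fat and 29.3, 30.2 and 33.9 FPKM in soleus, a difference of 2.05 ± 0.08.

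Paired genes for the same protein showed which form each tissue used. The share of 1 form in the summed FPKM of its pair was taken in each library for 24 pairs, a value that needs no scaling between libraries. The share of Slc25a4 in Slc25a4 and Slc25a5 was 53.7% ± 1.13 in brown fat and 99% ± 0.0361 in soleus (SD, n = 3 libraries each, here and below). Cox6a2 made up 0.0796% ± 0.0693 in brown fat and 96.5% ± 0.449 in soleus of the VIa subunit. Cox8b, by contrast, was the main form in both, 77.6% ± 0.57 in brown fat and 97.2% ± 0.369 in soleus against Cox8a, and Cox7a1 likewise, 82.9% ± 0.601 in brown fat and 87.8% ± 0.669 in soleus against Cox7a2, whose own level was higher in brown fat by 0.41 ± 0.14 (limma adjusted p = 0.019) but turned to -0.04 with median of ratios scaling. Cox7a1 itself was not called, at -0.17 (95% interval -1.10 to 0.76), though its ranges did not overlap. White fat, at 14.8, 8.4 and 42.9 FPKM, also enters this interval. Brown fat thus had mainly the muscle forms of subunits VIIa and VIII and the common form of VIa.

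Several glycolytic enzymes differed in form as well. The muscle phosphofructokinase Pfkm held 18.3% ± 1.5 in brown fat and 99.5% ± 0.0976 in soleus against the liver form Pfkl, and Eno3 held 2.57% ± 0.88 in brown fat and 99.2% ± 0.0602 in soleus against Eno1. Pgam2 held 16.1% ± 13.2 in brown fat and 99.9% ± 0.0137 in soleus against Pgam1, and muscle phosphorylase Pygm 1.29% ± 0.884 in brown fat and 99.8% ± 0.15 in soleus against the liver form Pygl. Lactate dehydrogenase was mixed in both tissues, with Ldhb at 33.4% ± 1.05 in brown fat and 58.7% ± 1.83 in soleus against Ldha. For regulators, Prkaa2 of AMPK held 30.7% ± 2.04 in brown fat and 81.6% ± 1.89 in soleus against Prkaa1, and Ppargc1a held 37.2% ± 8.09 in brown fat and 72.9% ± 4.6 in soleus against Ppargc1b. Acacb, the carboxylase at the mitochondrial surface, held 31.1% ± 2.92 in brown fat and 88.7% ± 2.13 in soleus against Acaca, the cytosolic form of fatty acid synthesis.

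Some shares were very low in brown fat, though not always the larger part in soleus. Acsl6 held 0.0114% ± 0.0145 in brown fat and 91.3% ± 1.15 in soleus against Acsl5, both ligases that charge long-chain fatty acids with CoA. The lactate exporter Slc16a3 held 0.212% ± 0.0207 in brown fat and 39.1% ± 3.15 in soleus against Slc16a1. Ucp3 held 1.51% ± 0.192 in brown fat and 94.8% ± 4.04 in soleus against Ucp1, yet Ucp3 itself was at 56.8, 53.8 and 57.7 FPKM in brown fat and 39, 31.4 and 36.9 FPKM in soleus and higher in brown fat, 0.64 ± 0.09, or 0.20 and not called with median of ratios scaling. A high share in soleus therefore did not mean a high level. The share was higher in brown fat in 2 pairs only, Sucla2 at 96.5% ± 0.282 in brown fat and 93.2% ± 0.1 in soleus against Suclg2 and Pdk4 at 96.3% ± 0.346 in brown fat and 94.4% ± 1.05 in soleus against Pdk1. For the other pairs plotted, Atp2a1 held 19.4% ± 13.4 in brown fat and 72.5% ± 0.828 in soleus against Atp2a2, Fabp3 55.8% ± 11.1 in brown fat and 97.7% ± 0.234 in soleus against Fabp5, Hk2 92.1% ± 1.91 in brown fat and 96.1% ± 0.505 in soleus against Hk1, and Thra 78.9% ± 7.54 in brown fat and 87.9% ± 0.476 in soleus against Thrb. In brown fat, shares of fast muscle forms such as Pgam2 and Atp2a1 were the most variable of those plotted and highest in replicate 2, whose muscle gene content is given with the sarcomere genes.

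**Figure D4:**
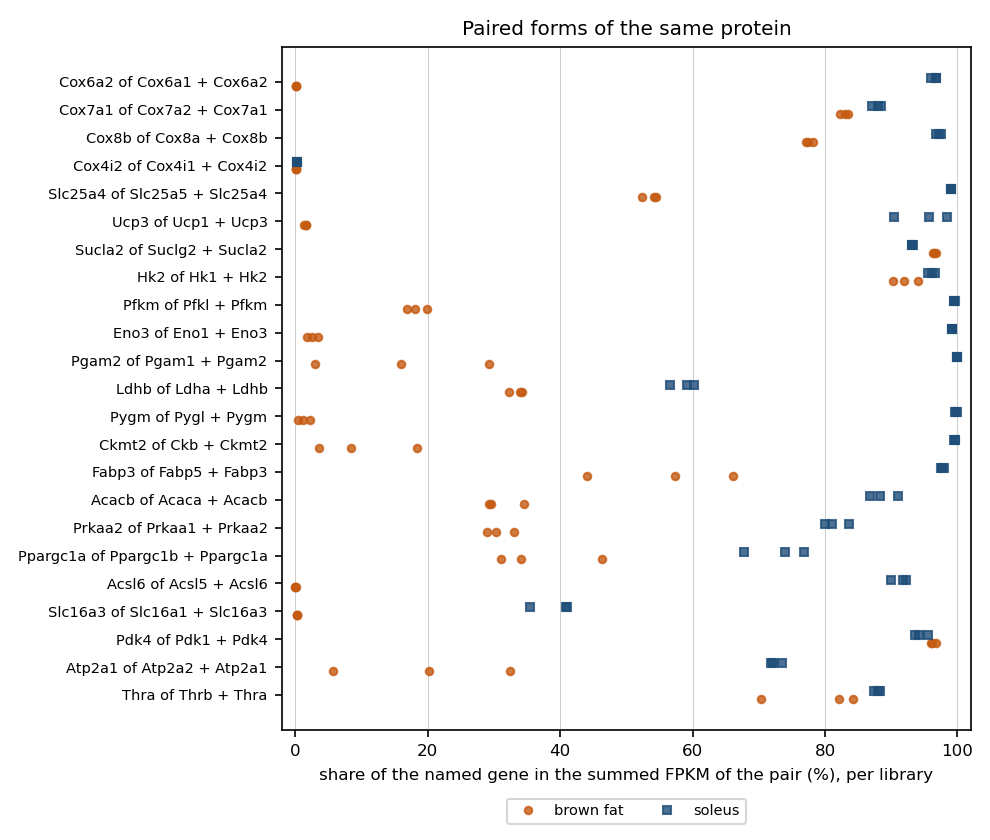
Share of the named gene in the summed FPKM of its pair (x axis, percent), 1 point per library, brown fat as circles and soleus as squares. Pfkm, Eno3, Pgam2 and Pygm lie near 100% in soleus and under 30% in brown fat, while Cox8b and Cox7a1 are the larger part in every library of both tissues.

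Glycolysis as a list did not lean one way. Of 20 genes 10 were higher and 8 lower, and the median of 0.37 turned to -0.08 with median of ratios scaling. Its summed share was 1.33%, 1.32% and 1.44% in brown fat and 2.5%, 2.43% and 2.49% in soleus. Pfkl was at 172, 179 and 179 FPKM in brown fat and 2.96, 2.86 and 2.18 FPKM in soleus, a difference of 5.61 ± 0.11. Pfkfb3, which makes the activator of phosphofructokinase, was at 202, 131 and 160.2 FPKM in brown fat and 5.51, 3.1 and 3.46 FPKM in soleus, a difference of 5.05 ± 0.18. On the soleus side Pgam2 was at 0.695, 8.8 and 4.15 FPKM in brown fat and 1128, 1258 and 1154 FPKM in soleus, a difference of -8.06 ± 0.47. Aldoa, the highest member, was at 1878, 1859 and 2045 FPKM in brown fat and 3048, 3311 and 3178 FPKM in soleus, a difference of -0.72 ± 0.12. The glucose transporter Slc2a4 (GLUT4) and hexokinase Hk2, the entry steps under insulin control, were not called, at -0.15 (95% interval -0.35 to 0.05) and 0.08 (95% interval -0.17 to 0.33).

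Glycogen genes split 8 higher to 12 lower of 21, with liver forms on 1 side and muscle forms on the other. Of these, 2 passed the filter through brown fat alone, Gys2 and Ppp1r3b, and 1 through soleus alone, Ppp1r3a, which fixed their direction. Pygl, liver phosphorylase, was at 357, 353 and 368 FPKM in brown fat and 2.43, 1.2 and 0.584 FPKM in soleus, a difference of 7.30 ± 0.22. Gys2, liver glycogen synthase, was at 32.2, 26.2 and 25.3 FPKM in brown fat and 0.261, 0.0763 and 0.0374 FPKM in soleus, a difference of 4.68 ± 0.24. Ppp1r3b, the liver scaffold of the phosphatase on glycogen, was at 63.3, 76.8 and 78.9 FPKM in brown fat and 0.351, 0.292 and 0.418 FPKM in soleus, a difference of 5.77 ± 0.11. Pygm was at 1.62, 7.99 and 4.54 FPKM in brown fat and 643, 644 and 721 FPKM in soleus, a difference of -7.04 ± 0.34. Ppp1r3a, the muscle scaffold, and Phkg1, the muscle phosphorylase kinase, differed by -4.47 ± 0.07 and -4.35 ± 0.10. Pgm1, which all of them share as the next step, was at 141, 141 and 123 FPKM in brown fat and 127, 129 and 141 FPKM in soleus with overlapping groups and a difference of 0.03 (95% interval -0.17 to 0.23).

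Creatine genes, which buffer ATP in muscle, had 1 of 6 higher and 3 lower. Ckmt2, the mitochondrial kinase of muscle, was at 0.35, 3.25 and 1.21 FPKM in brown fat and 1776, 2058 and 2124 FPKM in soleus, a difference of -9.73 ± 0.31. The creatine transporter Slc6a8 was at 4.06, 5.74 and 6.22 FPKM in brown fat and 40.5, 44.9 and 48.1 FPKM in soleus, a difference of -2.86 ± 0.16. The brain kinase Ckb was at 9.66, 14.4 and 13.2 FPKM in brown fat and 8.9, 9.01 and 7.95 FPKM in soleus, a difference of 0.47 ± 0.13, and no longer called with median of ratios scaling (0.05). With the replicate numbers as a block 5 genes were lower. Ckm, the cytosolic kinase of muscle, was listed at 0 in all 3 soleus libraries and at 4.87, 40.8 and 23.1 FPKM in brown fat, and no fold is given because an exact 0 can be a failed estimate.

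Fatty acid synthesis separated the tissues more than any pathway of oxidation described above. Of 14 counted genes 13 were higher in brown fat, 0 lower and 1 not called, with a median of 3.50, and 3.10 with median of ratios scaling. The share was 1.89%, 1.54% and 1.93% in brown fat, 0.0636%, 0.0437% and 0.0477% in soleus and 0.723%, 0.79% and 0.584% in white fat. For the counted genes brown fat thus lay above white fat as well. Fasn and Scd1, described below, were listed at 0 and are not in these sums. The counted genes summed to 6366, 5288 and 6319 FPKM in brown fat, and Thrsp made up most of that. Thrsp (Spot 14), a regulator of lipogenesis, was at 3941, 3267 and 3671 FPKM in brown fat and 54.7, 23.1 and 18 FPKM in soleus, a difference of 6.94 ± 0.32. In white fat it was at 1052, 1088 and 819 FPKM. Acly, which splits exported citrate into acetyl-CoA, was at 690.2, 613 and 879 FPKM in brown fat and 7.18, 4.93 and 4.11 FPKM in soleus, a difference of 6.84 ± 0.22. Acaca, which commits acetyl-CoA to fatty acids, was at 427, 371 and 460.1 FPKM in brown fat and 4.53, 3.79 and 3.82 FPKM in soleus, a difference of 6.38 ± 0.15. The elongase Elovl6 was at 139, 116 and 134 FPKM in brown fat and 0.474, 0.269 and 0.212 FPKM in soleus, a difference of 6.63 ± 0.14. In each of these genes the lowest brown fat value was far above the highest soleus value.

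The next enzymes in line were listed at 0. Fasn, fatty acid synthase, was at 0 in the brown fat libraries, at 10.9, 3.71 and 2.24 FPKM in soleus and at 338, 389 and 208 FPKM in white fat. Scd1, the main desaturase, was at 0 in brown and white fat and at 94.5, 37.9 and 15.2 FPKM in soleus, and Fabp4, the fatty acid binding protein of fat cells, was at 0 in both fats and at 1272, 827 and 617 FPKM in soleus. No difference is read from these zeros. In all, 29 of the genes passing the filter were listed at 0 in brown fat and 14 in soleus. Genes at 0 in brown fat whose soleus mean reached 10 FPKM also included Fzd9, BC048679, Ostn and Myl10. In soleus they were Acta1, Tnnt3, Ckm and Tpm2, which encode abundant muscle proteins, and Apol6.

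NADPH for lipogenesis comes from the pentose phosphate pathway and malic enzymes. Here 10 of 11 genes were higher and none lower, median 3.34. Tkt, transketolase, was at 1080.2, 980.1 and 1061 FPKM in brown fat and 8.97, 4.48 and 2.81 FPKM in soleus, a difference of 7.46 ± 0.28. G6pdx, the entry enzyme, was at 116, 87.3 and 85.7 FPKM in brown fat and 3.45, 1.66 and 1.34 FPKM in soleus, a difference of 4.99 ± 0.21. Pgd differed by 4.36 ± 0.14 and malic enzyme Me1 by 3.12 ± 0.24. The mitochondrial Me3 was the exception at 11.8, 13.7 and 13.5 FPKM in brown fat and 11.5, 12 and 12.7 FPKM in soleus, a difference of 0.10 (95% interval -0.07 to 0.27).

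Triglyceride and glycerol synthesis had 15 of 17 genes higher and 1 lower, median 2.86. Pck1 differed by 8.06 ± 0.44. Agpat2, which adds the next acyl chain, was at 1007, 961 and 886 FPKM in brown fat and 17.2, 9.73 and 7.97 FPKM in soleus, a difference of 6.30 ± 0.21. Droplet proteins and lipases had 11 of 12 higher. Cidea, a droplet protein of brown fat, was at 2169.6, 2352 and 2058 FPKM in brown fat and 8.78, 6.84 and 6.25 FPKM in soleus, a difference of 8.06 ± 0.49, the fat cell droplet protein Cidec at 611, 672 and 524 FPKM in brown fat and 45.2, 13.2 and 6.03 FPKM in soleus, a difference of 5.17 ± 0.50. Hormone-sensitive lipase Lipe was at 527, 519.9 and 505 FPKM in brown fat and 21.6, 10.9 and 8.59 FPKM in soleus, a difference of 5.24 ± 0.24. Fitm1 was the lower member. It helps droplets to form in muscle, and was at 0.114, 0.553 and 0.333 FPKM in brown fat and 258, 294 and 257 FPKM in soleus, a difference of -7.68 ± 0.11.

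Fat genes in soleus were highest in replicate 1. Of 18 counted adipocyte markers, 15 were highest there, 0 in replicate 2 and 3 in replicate 3, and none was at 0 in any soleus library. Their summed share in soleus was 0.903%, 0.617% and 0.697% against 4.88%, 4.59% and 4.49% in brown fat. Adipoq, the adipokine adiponectin, was at 1058, 1061 and 906 FPKM in brown fat and 77.1, 31.8 and 12.4 FPKM in soleus. The part of fat cells within the soleus samples in these results was not tested. Without soleus replicate 1 the counts of higher genes stayed at 13 for fatty acid synthesis, 15 for triglyceride synthesis, 11 for droplet genes, 10 for NADPH supply and 18 for adipocyte markers.

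Uptake and handling of fatty acids was less one-sided, 13 higher and 4 lower of 18, median 1.02. Lpl, lipoprotein lipase and the highest member, was at 1238, 1061 and 956 FPKM in brown fat and 469.6, 490.0 and 594 FPKM in soleus, a difference of 1.07 ± 0.11. Lpl was listed at 0 in every white fat library, and these zeros enter its standard error. Slc27a2, a transporter that also activates very long chains, was at 64.4, 73.8 and 53.4 FPKM in brown fat and 0.058, 0 and 0.0132 FPKM in soleus, a difference of 5.97 ± 0.21, and the thioesterase Acot11, known for its induction by cold, differed by 4.08 ± 0.21. Acsl5 and Acsl6 mirrored each other, at 5.65 ± 0.09 and -4.64 ± 0.08. Fabp3, the heart and muscle binding protein, was at 39.7, 75.9 and 58.9 FPKM in brown fat and 297, 288 and 283 FPKM in soleus, a difference of -2.34 ± 0.18.

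Peroxisomes, which shorten very long chains, had 30 of 31 genes higher, none lower, with a median of 1.58. The list exceeded the background of 55.3% higher genes, and its share was 0.76%, 0.711% and 0.705% in brown fat, 0.226%, 0.211% and 0.228% in soleus and 0.583%, 0.643% and 0.58% in white fat. Phyh, of phytanic acid breakdown and the highest member, was at 548, 569 and 577 FPKM in brown fat and 196, 234 and 214 FPKM in soleus, a difference of 1.39 ± 0.10. Ehhadh, the bifunctional enzyme of peroxisomal oxidation, was at 74.5, 50.3 and 42.4 FPKM in brown fat and 2.94, 2.93 and 3.27 FPKM in soleus, a difference of 3.77 ± 0.21. The thiolase Acaa1b was at 17.6, 18.8 and 17.7 FPKM in brown fat and 0.425, 0.0732 and 0.0418 FPKM in soleus, a difference of 4.03 ± 0.11. The import receptor Pex7 differed by less, 0.92 ± 0.08.

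Antioxidant genes leaned the same way, 22 higher and 2 lower of 27, median 0.75, or 17 and 3 with median of ratios scaling, median 0.33. Gpx3, a secreted glutathione peroxidase, was the highest member at 1545, 2072 and 1799 FPKM in brown fat and 83.7, 56.5 and 56.7 FPKM in soleus, a difference of 4.78 ± 0.22. Sod3, the extracellular dismutase, was higher at 3.35 ± 0.11. Nqo1, a quinone reductase, was lower at 0.747, 0.762 and 1.11 FPKM in brown fat and 15.5, 17.2 and 17.4 FPKM in soleus, a difference of -3.24 ± 0.11, and was the only lower gene without brown fat replicate 1 or 3 or soleus replicate 2, and with the replicate numbers as a block.

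**Figure D5:**
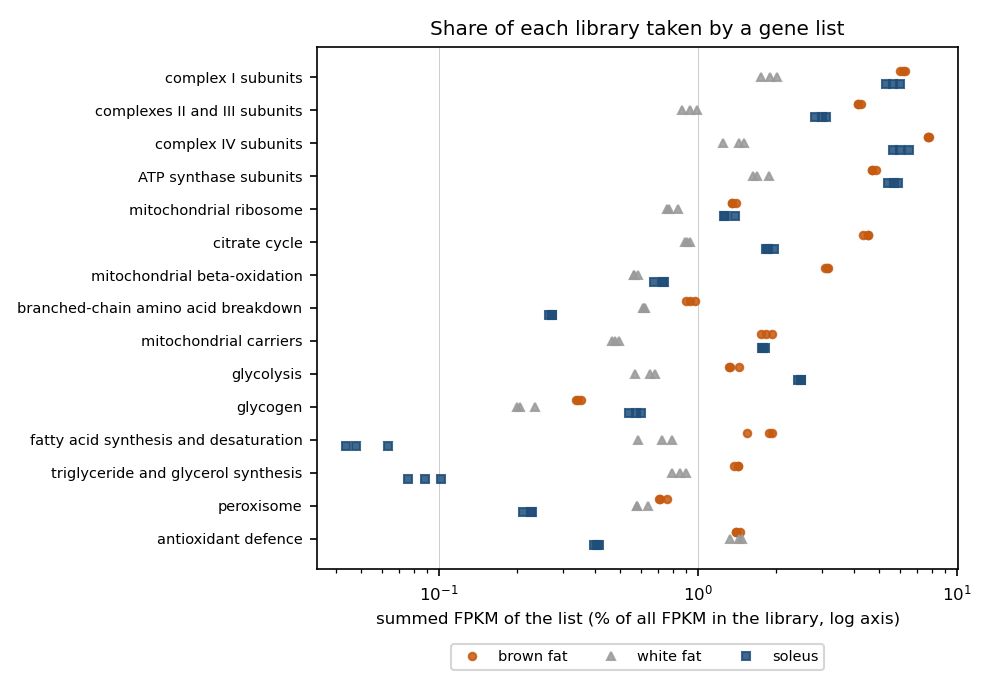
Summed FPKM of 15 lists as percent of all FPKM in each library (x axis, log scale), 1 point per library, brown fat as circles, white fat as triangles and soleus as squares. The 4 chain and ATP synthase lists lie closer between brown fat and soleus than either lies to white fat, but the libraries do not overlap. Complexes II and III are at 4.16%, 4.13% and 4.27% in brown fat and 3.01%, 3.11% and 2.84% in soleus. Complex IV is at 7.73%, 7.73% and 7.82% in brown fat and 6.02%, 6.53% and 5.66% in soleus. ATP synthase is higher in soleus. Fatty acid synthesis lies at 1.89%, 1.54% and 1.93% in brown fat and under 0.1% in soleus.

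Contractile genes counted were lower in brown fat. Slow twitch, fast twitch and common sarcomere lists had 9 of 9, 10 of 10 and 23 of 23 members lower, with medians of -10.03, -7.17 and -6.48. Excitation and calcium release genes were lower in 24 of 24, median -4.67. Many passed the filter through soleus alone, 2 of the slow twitch, 0 of the fast twitch, 11 of the common and 11 of the calcium release genes, so only the others could have gone either way. The slow genes led. Myl3, a light chain, was at 1.49, 1.68 and 1.42 FPKM in brown fat and 6098, 7007 and 6961 FPKM in soleus. Tnnc1, slow troponin C, was at 0.682, 1.35 and 0.831 FPKM in brown fat and 3794, 4356 and 4200.5 FPKM in soleus. Tnnt1, slow troponin T, was at 0.177, 1.19 and 0.686 FPKM in brown fat and 2645, 3055 and 3134 FPKM in soleus. Their differences were -11.37, -11.05 and -10.81, and that of Myl2 was -12.37 ± 0.24.

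At the Z-disc, Actn2, the muscle actinin, was at 0.215, 1.0 and 0.767 FPKM in brown fat and 939, 919 and 1165 FPKM in soleus, a difference of -9.27 ± 0.16. Myoz2, a calcineurin-binding protein of slow fibres, was at 0.0507, 0.323 and 0.155 FPKM in brown fat and 1091, 1406 and 1184 FPKM in soleus, a difference of -10.03 ± 0.11. Sln, sarcolipin, which uncouples the calcium pump from transport, was at 0.0519, 0 and 0.095 FPKM in brown fat and 218, 316 and 332 FPKM in soleus, a difference of -8.08 ± 0.14. Jsrp1 and Hrc of the calcium store differed by -7.40 ± 0.18 and -7.21 ± 0.20. The calcium pump Atp2a2, made in many tissues, was at 56.7, 59.6 and 53.5 FPKM in brown fat and 747, 822 and 1038 FPKM in soleus, a difference of -3.90 ± 0.11. Calm3, a calmodulin gene used by all cells, differed by -0.42 ± 0.09.

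Muscle genes in brown fat varied between libraries. Fast twitch genes summed to 0.0192%, 0.0831% and 0.0508% of FPKM in replicates 1, 2 and 3, and all 10 were highest in replicate 2. Of the common sarcomere genes 19 of 23 were highest there, and 11 were under 1 FPKM in all 3 libraries. Tnnc2 was at 7.05, 54.8 and 26.3 FPKM and Pvalb, a calcium buffer of fast fibres, at 4.65, 44 and 23.3 FPKM. A part of muscle tissue in these libraries was not tested. Without brown fat replicate 2 the counts of lower genes were 10 for fast twitch, 24 for calcium release and 11 for glycogen.

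Sequence before the start sites was read for these genes, since they differed together. Windows from 250 bases before to 50 after each RefSeq start (GRCm38.p6) were on hand for 30 of the 42 counted sarcomere genes, 37 windows in all. The pattern CTANNNNTAG is a loose form of the core bound by MEF2 factors, since it allows any base in its middle. It was found on either strand in 7 of the 37 windows (18.9%) and in 3.12% of the 9441 windows of all genes tested. The sequence CAGCTG, an E-box of the kind bound by MyoD, was in 32.4% against 15.4%. It was also in 31.2% of the 16 windows of calcium release genes, of which 1 (6.25%) held CTANNNNTAG. The latter pattern was in 8.57% of mitochondrial ribosome windows as well. For oxidation genes AGGTCA, the core motif of nuclear receptors, was counted on both strands. It was in 28.6% of the 35 windows of citrate cycle and beta-oxidation genes and 27.3% of the 22 windows of branched-chain genes, against 12.3% of all. Other sets had like shares, 24.4% for adipocyte and thermogenic genes, 23.7% for lipid synthesis and 22.5% for the chain and ATP synthase, while the mitochondrial ribosome was at 12.9%. The letters CCAAT were in 57.1% and 68.2% of the windows of the first 2 sets against 36.8%, and in 29.7% to 43.8% of the windows of the other 6 sets. Each motif was counted by itself, whether or not another overlapped it. These are matches of letters in a window and not sites.

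The 150 bases before the start follow for 4 sarcomere genes with CTANNNNTAG in that stretch, to show where it lies. In brown fat Myoz2, Synpo2l and Xirp2 were under 1 FPKM in every library, and Ldb3 was at 0.706, 2.73 and 1.48 FPKM. The sequences printed here and below do not cover every chromosome. Coordinates are of GRCm38.p6 and the letters run 5′ to 3′. Capitals mark CTANNNNTAG and, in Myoz2, CAGCTG as well. The middle bases of CTANNNNTAG are all A or T except in Ldb3, where they include a C.
Ldb3, chr14:34588608-34588757, minus strand: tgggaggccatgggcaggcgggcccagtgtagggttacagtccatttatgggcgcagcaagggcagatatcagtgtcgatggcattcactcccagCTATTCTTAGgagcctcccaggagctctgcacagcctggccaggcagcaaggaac
Myoz2, chr3:123034988-123035137, minus strand: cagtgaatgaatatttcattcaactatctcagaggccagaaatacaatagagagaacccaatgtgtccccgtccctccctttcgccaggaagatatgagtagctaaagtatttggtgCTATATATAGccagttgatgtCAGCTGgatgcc
Synpo2l, chr14:20668355-20668504, minus strand: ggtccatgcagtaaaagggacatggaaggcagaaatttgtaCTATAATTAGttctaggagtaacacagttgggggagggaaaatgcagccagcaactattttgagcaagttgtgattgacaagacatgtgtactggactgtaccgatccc
Xirp2, chr2:67445852-67446001, plus strand: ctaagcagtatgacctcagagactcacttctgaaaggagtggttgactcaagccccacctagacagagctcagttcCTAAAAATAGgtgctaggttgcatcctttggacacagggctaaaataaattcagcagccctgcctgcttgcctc

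The same stretch is given for Ucp1 and for beta-oxidation genes that hold AGGTCA or its reverse complement there, in capitals, as the oxidation side of the comparison. Echs1, an enoyl-CoA hydratase, differed by 2.25 ± 0.10, and Cpt1a was not called.
Ucp1, chr8:83290198-83290347, plus strand: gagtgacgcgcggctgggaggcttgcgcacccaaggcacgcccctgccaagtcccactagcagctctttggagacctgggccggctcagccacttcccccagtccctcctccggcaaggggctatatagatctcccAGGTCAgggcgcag
Echs1, chr7:140116422-140116571, minus strand: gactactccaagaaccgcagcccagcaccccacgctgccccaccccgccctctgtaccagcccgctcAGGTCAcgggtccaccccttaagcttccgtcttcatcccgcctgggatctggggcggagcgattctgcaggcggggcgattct
Cpt1a, chr19:3323151-3323300, plus strand: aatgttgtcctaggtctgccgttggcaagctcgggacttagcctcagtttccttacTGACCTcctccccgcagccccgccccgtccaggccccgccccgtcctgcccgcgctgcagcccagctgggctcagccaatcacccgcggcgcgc

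Levels of the printed muscle genes were all far apart. Ldb3, which ties actinin to the Z-disc, was at 0.706, 2.73 and 1.48 FPKM in brown fat and 772, 826 and 847 FPKM in soleus, a difference of -8.35 ± 0.21. Synpo2l, an actin-binding protein, was at 0.0543, 0.113 and 0.143 FPKM in brown fat and 42.1, 44 and 48.3 FPKM in soleus, a difference of -5.37 ± 0.07. Xirp2, an actin-binding repeat protein, was at 0.0568, 0.481 and 0.277 FPKM in brown fat and 56.5, 61.1 and 84 FPKM in soleus, a difference of -5.74 ± 0.15.

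The junction of nerve and muscle and the dystrophin complex had 17 of 20 genes lower and 3 higher, but 12 passed the filter through soleus alone. Sgca, a sarcoglycan, was at 0.0916, 0.286 and 0.209 FPKM in brown fat and 102, 103 and 96.7 FPKM in soleus, a difference of -6.41 ± 0.07. The muscle caveolin Cav3 was at 0.0674, 0.175 and 0.0616 FPKM in brown fat and 60.9, 76.3 and 71.3 FPKM in soleus, a difference of -6.00 ± 0.09. The 3 higher genes were Utrn, the wide-spread relative of dystrophin, at 11.1, 11.1 and 10.4 FPKM in brown fat and 2.94, 2.48 and 2.9 FPKM in soleus, a difference of 1.66 ± 0.08, Sgcd at 0.90 ± 0.11 and Dag1, dystroglycan, at 0.57 ± 0.11, the last not called with median of ratios scaling (0.13).

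Regulators of the muscle fate were lower in 13 of 15 cases, and 9 passed the filter through soleus alone. Vgll2, a TEAD cofactor, was at 0.0127, 0.0659 and 0.0696 FPKM in brown fat and 67.7, 90.2 and 90.5 FPKM in soleus, a difference of -6.31 ± 0.10. Myf6, Mef2c and Myod1 differed by -5.76 ± 0.10, -4.68 ± 0.14 and -3.55 ± 0.07. Tbx15, a factor also known from fat depots, was at 0.682, 1.04 and 0.953 FPKM in brown fat and 22.4, 27.8 and 31.2 FPKM in soleus, a difference of -3.89 ± 0.12. Mef2a was not called, at 0.16 (95% interval -0.06 to 0.38). Sox6, which represses slow fibre genes, was higher at 11.8, 13.7 and 12 FPKM in brown fat and 4.81, 4.54 and 5.58 FPKM in soleus, a difference of 1.17 ± 0.10.

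Factors of the fat cell were higher in 13 of 19 cases and lower in 2, and 3 passed the filter through brown fat alone. Pparg, the master regulator, was at 153, 144 and 150.1 FPKM in brown fat and 3.29, 2.13 and 1.43 FPKM in soleus, a difference of 5.55 ± 0.16. Cebpa was at 199, 204 and 187 FPKM in brown fat and 6.07, 2.83 and 2.1 FPKM in soleus, a difference of 5.50 ± 0.23. Ebf2, which marks brown fat precursors, was at 19.1, 20.7 and 21.9 FPKM in brown fat and 1.2, 0.92 and 1.03 FPKM in soleus, a difference of 3.40 ± 0.09. Prdm16 was at 5.56, 3.54 and 2.76 FPKM in brown fat and 0.431, 0.417 and 0.59 FPKM in soleus, a difference of 1.71 ± 0.16. Irf4, a factor of lipolysis and heat production, was at 9.48, 48.3 and 19.5 FPKM in brown fat and 0.309, 0.202 and 0.11 FPKM in soleus. The brown fat libraries spread widely but stayed above soleus, 4.19 ± 0.41. Cebpd was lower, -1.14 ± 0.14, and Klf15 was not called, at 0.28 (95% interval -0.18 to 0.75), though it was without brown fat replicate 3 (0.56).

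Coactivators and receptors of oxidative genes differed in both directions. Of 22 genes, 12 were higher and 4 lower, and the median of 0.40 turned to -0.01 with median of ratios scaling, with 9 higher and 9 lower. Ppara, the receptor for fatty acids, was at 86.4, 84.2 and 79.3 FPKM in brown fat and 8.18, 7.19 and 9.92 FPKM in soleus, a difference of 3.17 ± 0.10. Ppargc1a, the coactivator PGC-1 alpha, was not called. It was at 20.8, 8.92 and 12.1 FPKM in brown fat and 11, 7.59 and 10.6 FPKM in soleus, a difference of 0.41 (95% interval -0.11 to 0.94), and was called higher without brown fat replicate 2 (0.67). Its relative Ppargc1b was at 24, 19.8 and 23.4 FPKM in brown fat and 3.31, 3.6 and 3.75 FPKM in soleus, a difference of 2.36 ± 0.09. The oestrogen-related receptors Esrrb and Esrrg were on the soleus side. Esrrb was at 0.0695, 0.114 and 0.187 FPKM in brown fat and 6.44, 7.85 and 8.44 FPKM in soleus, a difference of -2.93 ± 0.09. Esrrg was at 5.76, 5.65 and 4.51 FPKM in brown fat and 11.6, 16.1 and 16.9 FPKM in soleus, a difference of -1.32 ± 0.13. Nrf1 and Gabpb1, general activators of chain genes, differed by 0.04 (95% interval -0.13 to 0.20) and 0.02 (95% interval -0.13 to 0.18). The thyroid hormone receptors Thrb and Thra were higher at 1.72 ± 0.18 and 1.13 ± 0.14.

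Heat production is set off by noradrenaline through cyclic AMP. Of 29 genes of that path 21 were higher and 6 lower, median 1.11. Of the 29, 7 passed the filter through brown fat alone and 2, Adcy2 among them, through soleus alone. Receptors came first. Adrb3 was at 92.8, 85.6 and 94.1 FPKM in brown fat and 3.87, 0.831 and 0.367 FPKM in soleus, a difference of 5.32 ± 0.36, Adrb1 differed by 3.32 ± 0.31 and Adra1a by 4.32 ± 0.07. Gnas, the stimulatory G protein, was the highest gene of the path at 1635, 3025 and 2489 FPKM in brown fat and 557, 625 and 637 FPKM in soleus, a difference of 1.93 ± 0.19. Among cyclases Adcy3 was at 40.0, 33.8 and 31.6 FPKM in brown fat and 0.491, 0.41 and 0.382 FPKM in soleus, a difference of 4.65 ± 0.09. Adcy2 was at 0.0437, 0.083 and 0.0726 FPKM in brown fat and 9.17, 9.94 and 10.1 FPKM in soleus, a difference of -3.33 ± 0.07.

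The regulatory subunits of protein kinase A were exchanged. Prkar2b was at 469.6, 483 and 438 FPKM in brown fat and 4.71, 1.88 and 0.774 FPKM in soleus, a difference of 7.24 ± 0.31. Prkar2a was at 4.96, 4.79 and 4.32 FPKM in brown fat and 18.7, 21 and 28 FPKM in soleus, a difference of -2.03 ± 0.12. Prkar1a was at 69.2, 66.9 and 62.5 FPKM in brown fat and 43.9, 47 and 51.9 FPKM in soleus, a difference of 0.47 ± 0.08, a call that median of ratios scaling ended (0.02). Of the phosphodiesterases, Pde3b, which insulin activates in fat, was at 70.8, 65.6 and 61.7 FPKM in brown fat and 2.02, 0.915 and 0.522 FPKM in soleus, a difference of 5.02 ± 0.20, while Pde7a and Pde4b were lower at -2.11 ± 0.09 and -1.88 ± 0.17. Dio2, chosen after its values were seen and known to make active thyroid hormone within the cell, was at 72.4, 21.1 and 33.1 FPKM in brown fat and 1.54, 1.37 and 1.29 FPKM in soleus, a difference of 3.99 ± 0.33.

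Other genes high in brown fat completed the set of largest differences. Slc36a2, an amino acid transporter, was at 298, 295 and 276 FPKM in brown fat and 1.36, 0.747 and 0.408 FPKM in soleus, a difference of 7.34 ± 0.16. Kcnk3, a potassium channel, was at 96.4, 99.2 and 90.1 FPKM in brown fat and 0.136, 0.133 and 0.0931 FPKM in soleus, a difference of 6.42 ± 0.07. Secreted factors of fat were higher in 13 of 17 cases. Apoc1, an apolipoprotein, was at 1353, 1456 and 1634 FPKM in brown fat and 14.7, 6.29 and 2.82 FPKM in soleus, a difference of 7.60 ± 0.38. Nrg4, a growth factor released by brown fat, was at 57, 53.4 and 52.9 FPKM in brown fat and 0.83, 0.28 and 0.213 FPKM in soleus, a difference of 5.29 ± 0.14. Cfd, the protease adipsin, was at 2097, 2145 and 2044 FPKM in brown fat and 339, 168 and 81.6 FPKM in soleus, a difference of 3.64 ± 0.37. Cfd was listed at 0 in every white fat library, and these zeros enter its standard error. Vegfa, which drives vessel growth, was at 79.5, 85.1 and 83.8 FPKM in brown fat and 94.4, 82.4 and 80.5 FPKM in soleus with overlapping groups and a difference of -0.05 (95% interval -0.29 to 0.20). Secreted factors of muscle had 8 of 13 lower and 4 higher, and 3 passed the filter through soleus alone. Fndc5, the precursor of irisin, was at 3.73, 6.1 and 3.06 FPKM in brown fat and 69, 98.6 and 104 FPKM in soleus, a difference of -4.13 ± 0.21. Metrnl, though listed with fat factors, was lower at 0.888, 1.17 and 1.13 FPKM in brown fat and 6.48, 7.46 and 6.28 FPKM in soleus, a difference of -1.91 ± 0.09.

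Markers of the cells that both tissues contain differed by less. Endothelial genes were higher in 14 of 18 cases, median 0.61. With median of ratios scaling 7 were higher and 3 lower, median 0.21. Kdr, the VEGF receptor, was at 18.2, 20.5 and 19.5 FPKM in brown fat and 6.37, 5.12 and 5.19 FPKM in soleus, a difference of 1.64 ± 0.13. Cdh5 of the vessel junctions was at 28.8, 26.1 and 28.2 FPKM in brown fat and 12.1, 11.8 and 14.3 FPKM in soleus, a difference of 1.06 ± 0.17. Aqp1, the water channel of capillaries, was not called, at 0.30 (95% interval -0.13 to 0.73), and Egfl7 lower at -0.76 ± 0.14. Macrophage genes were low in both, 0.0154% to 0.0178% of FPKM in brown fat and 0.0104% to 0.0166% in soleus, and their median of 0.33 turned to -0.04 with median of ratios scaling, with 1 higher. Of 10 genes 6 were higher, but 1 without brown fat replicate 2 or soleus replicate 2 and 3 without soleus replicate 3. When single libraries were left out, the 1 lower gene kept its call only without soleus replicate 3. No lymphocyte marker passed the filter.

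Matrix genes leaned to soleus, 14 of 24 lower and 3 higher, median -0.52, and 4 passed the filter through soleus alone. The lower genes were 20 with median of ratios scaling. Tendon genes made the widest gaps. Tnmd, tenomodulin, was at 0.0286, 0 and 0.0261 FPKM in brown fat and 27.6, 21.7 and 14.4 FPKM in soleus, a difference of -4.40 ± 0.17. Fmod, fibromodulin, was at 0.216, 0.188 and 0.242 FPKM in brown fat and 48.6, 28.9 and 15.4 FPKM in soleus, a difference of -4.58 ± 0.31. Scx, the tendon transcription factor, differed by -3.72 ± 0.07. A part of tendon in the soleus samples was not tested. Basement membrane collagen was on the other side, Col4a1 at 77.6, 67.1 and 64.8 FPKM in brown fat and 23.6, 18.2 and 28.1 FPKM in soleus, a difference of 1.56 ± 0.16, and Col3a1 was not called, at 0.10 (95% interval -0.26 to 0.46).

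Nerve and mural markers were mixed. Of 6 Schwann cell and nerve genes 1 was higher, 3 lower and 2 not called, with 2 higher without soleus replicate 2. S100b, a calcium binding protein of Schwann cells that fat cells also make, was at 52.9, 48.7 and 59.4 FPKM in brown fat and 0.428, 1.13 and 0.572 FPKM in soleus, a difference of 5.01 ± 0.17. Smooth muscle and pericyte genes gave 3 higher and 4 lower of 9. Cspg4 was higher at 2.31 ± 0.09, Acta2 lower at -1.28 ± 0.16 and the pericyte gene Rgs5 not called, at -0.10 (95% interval -0.45 to 0.26). Of satellite cell genes, Cdh15 was at 0.0121, 0.0105 and 0.0331 FPKM in brown fat and 7.31, 7.34 and 7.84 FPKM in soleus, a difference of -3.06 ± 0.06, and Sdc4 higher at 0.66 ± 0.12, or 0.22 and not called with median of ratios scaling.

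Few Hox genes, which set position along the body, passed the filter. Hox genes of groups 1 to 5, which act in the front of the body, were higher in brown fat in 4 of 4 cases, and those of groups 6 to 13 lower in 6 of 8. Of these, 3 passed the filter through brown fat alone and 5 through soleus alone, which fixed their direction. The split by group therefore rests mostly on genes that could not have gone the other way. Hoxb3 was at 5.1, 4.92 and 4.36 FPKM in brown fat and 0.31, 0.338 and 0.24 FPKM in soleus, a difference of 2.16 ± 0.07. Hoxc10 was at 0, 0.0288 and 0 FPKM in brown fat and 21.2, 24.5 and 25.5 FPKM in soleus, a difference of -4.61 ± 0.08. Hoxa7 was the member of the hind set that was higher, by 0.42 ± 0.10, and was not called with median of ratios scaling (0.08). The set had 2 higher genes without soleus replicate 1. Hoxa10 and Hoxc11 were listed at 0 in brown fat and at 6.87, 8.93 and 6.73 FPKM and 6.38, 6.69 and 7.49 FPKM in soleus. White fat expressed Hoxc10 at 0, 0.026 and 0.0508 FPKM.

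Chaperones leaned to soleus, with 12 of 23 genes lower and 6 higher, median -1.45, and 4 passed through soleus alone. The small heat shock proteins that guard the sarcomere led. Hspb7 was at 0.056, 0.237 and 0.193 FPKM in brown fat and 499.6, 614 and 637 FPKM in soleus, a difference of -8.97 ± 0.11. Hspb6 was at 7.13, 7.48 and 9.05 FPKM in brown fat and 1271, 1533 and 1630.5 FPKM in soleus, a difference of -7.38 ± 0.11. Cryab was at 10.2, 10.8 and 12.3 FPKM in brown fat and 1323, 1612 and 1502 FPKM in soleus, a difference of -6.93 ± 0.10. Hsp90aa1, a general chaperone, was higher at 45.1, 19.4 and 20.3 FPKM in brown fat and 5.35, 6.52 and 6.82 FPKM in soleus, 1.91 ± 0.25, with brown fat replicate 1 highest. Proteasome subunits lay close to equal, 13 of 29 lower, 2 higher and a median of -0.18, and with median of ratios scaling 28 were lower. The count of higher genes was 6 without soleus replicate 2 and 1 without any other library. Psmc3, an ATPase of the cap, was at 53.3, 53 and 46.1 FPKM in brown fat and 95.6, 117 and 107 FPKM in soleus, a difference of -1.05 ± 0.11, and Psmd4 was not called, at -0.02 (95% interval -0.24 to 0.21).

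Clock genes split. Of 14 genes 4 were higher and 8 lower, median -0.45. Arntl (BMAL1), of the activating arm, was at 3.76, 4.42 and 4.12 FPKM in brown fat and 8.83, 10.3 and 9.06 FPKM in soleus, a difference of -1.03 ± 0.10. Its partner Clock was at 11.6, 10.2 and 9.93 FPKM in brown fat and 4.77, 4.33 and 5.2 FPKM in soleus, a difference of 1.01 ± 0.08. Outputs split too, Dbp at 2.5, 4.18 and 2.38 FPKM in brown fat and 9.56, 6.91 and 11.2 FPKM in soleus, a difference of -1.35 ± 0.22. Hlf was at 4.42, 6.82 and 4.91 FPKM in brown fat and 0.73, 0.625 and 0.782 FPKM in soleus, a difference of 1.88 ± 0.12. The repressor Nr1d1 was at 28.6, 35.5 and 24.9 FPKM in brown fat and 68.3, 56.8 and 51.2 FPKM in soleus, a difference of -0.97 ± 0.15. The labels do not state the hour of collection.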

How the data were processed

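The labels' protocols give TRIzol for RNA extraction and Illumina's TruSeq v2 kit for the libraries, so reads of overlapping antisense genes cannot be told apart. The authors deposited FPKM per RefSeq transcript accession for 9 libraries. TopHat 1.4.1, Cufflinks 2.0.1 and the mm9 build are named per the submitters' processing notes, without their settings. Because FPKM is relative to each library's mapped reads, a few abundant transcripts can lower all other values of a library. How far this acts in soleus was not tested. Exact zeros can be failed estimates.

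Of 18401 rows, RefSeq's gene table named 18305 and GENCODE's a further 38. Another 55 without a symbol and 3 with several were left out, 0.0339% to 0.36% of the FPKM of a library. Rows were summed for the 541 symbols with more than 1 row, which gave 17753 genes. Genes with at least 1 FPKM in 3 of the 6 libraries were kept. Genes listed at 0 in a whole tissue were set apart, a rule widened after the files were seen to any such gene, whatever its level in the other tissue. The deposited FPKM were put on a log2 scale with a pseudocount of 1 and fitted with limma 3.58.1 in R 4.3.3. All 9 libraries entered with a term per tissue, which left 6 residual degrees of freedom, and the prior variance followed the mean level. P-values were adjusted by Benjamini-Hochberg over all genes tested, with a threshold of 0.05, and the fit was tested on simulated data. Read counts were not used here, so depth was read only in relative terms, from the spacing of low FPKM values.

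The gene lists and the genes compared were chosen with earlier results of these data known. Genes named were the 4 markers, the 8 with the largest difference per direction at a mean of at least 10 FPKM, and the genes of each isoform pair. From each list they were up to 3 called genes per direction, the highest member and up to 2 members closest to equal, and for regulators any member. Ldb3, Synpo2l, Xirp2 and Echs1 were added for their sequence. Same-numbered libraries had correlations of 0.001, 0.027 and -0.102 between their deviations from the tissue means. With so few libraries per tissue this cannot show whether they share a mouse. The 19 alternatives changed the pseudocount, the filter, the scaling, the libraries fitted, the variance trend, the row kept per symbol, the handling of zeros and the replicate block, and left out each library in turn. Results for a few genes are not reported here.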

Additional observations from a re-analysis of the deposited data

How the results depend on the processing

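Over 19 alternatives, the counts of genes moved by more than 1.5 times in few cases. Genes lower in brown fat, 2417, became 1610 with a filter of 5 FPKM and 3818 with median of ratios scaling, which called 3534 higher and so put 48.1% of the called genes in brown fat instead of 67.8%. Genes higher by at least 1 log2 unit, 2122, became 1185 with a pseudocount of 5 and 1400 with median of ratios scaling, and those lower by as much, 1091, became 644 with a pseudocount of 5. Genes with an interval within 1 log2 unit, 5077, became 9756 without a filter and 2959 with a filter of 5 FPKM, which change the number of genes tested. Leaving out each library in turn gave 4904 to 5039 higher and 2275 to 2410 lower genes.

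Scaling turned the medians of 8 of 49 lists. With median of ratios they were -0.32 for complex I, -0.10 for complex IV, -0.20 for the mitochondrial ribosome, -0.09 for coenzyme Q and cardiolipin, -0.25 for fusion and fission, -0.08 for glycolysis, -0.01 for oxidative coactivators and -0.04 for macrophages. With upper quartile scaling they were -0.19 for complex I, -0.08 for the ribosome and -0.14 for fusion and fission, and with quantile normalization -0.04, -0.06 and -0.14. The Schwann cell median became 0.37 with a filter of 5 FPKM, which leaves fewer genes. Of 255 named genes 1 turned direction, Cox7a2 at -0.04 with median of ratios. In all, 10 lost their call and 33 gained one under at least 1 alternative.

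Whether libraries with the same replicate number share a mouse is not known. With the replicate number as a block, 5003 genes were higher and 2367 lower, no named gene changed its call, and the counts of 2 lists moved by over 1.5 times. Depth is known only from FPKM, so low levels cannot be given a counting limit.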
